A study of Mus musculus with 9 samples.

Results

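The integrated stress response is followed here through 10 of its genes in mouse liver before and after partial hepatectomy, liver by liver. The genes are *Atf4*, *Atf5*, *Ddit3*, *Trib3*, *Asns*, *Chac1*, *Ddit4*, *Sesn2*, *Fgf21* and *Gdf15*, taken from the deposited table by name. They are 10 of the 43346 genes it lists, each has 1 row there, and all 10 were among the 15024 genes that passed the filter on low counts. The members were chosen by name, with levels and fold changes of these same livers already known. Which of those values guided the choice is not recorded, so all 3 comparisons between groups are treated as having been in view, and the tests of these genes describe them and support nothing further.

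In the integrated stress response, kinases that sense amino acid lack, misfolded protein, viral RNA or haem shortage phosphorylate the translation factor eIF2, which lowers most protein synthesis while the mRNA of the transcription factor ATF4 is translated more. ATF4 then switches on genes for amino acid uptake and synthesis, its fellow factors ATF5 and CHOP (encoded by *Ddit3*), and brakes such as TRIB3. In liver the same program reaches the circulation through the hormones FGF21 and GDF15, and CHOP is known for its part in the death of cells whose protein folding stress is prolonged.

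Whole liver of C57/BL6 mice (C57BL/6J in the study's methods) aged 12 weeks was profiled by RNA-Seq in 9 libraries, 3 groups of 3. Baseline livers (vehicle, 0 h) were the tissue removed at surgery from mice given vehicle. The 40 h groups were liver remnants collected 40 h after 70% hepatectomy from mice given vehicle or NSC87877 (NSC), a small molecule inhibitor of the tyrosine phosphatases SHP1 and SHP2. NSC was dosed at 7.5 mg/kg, 2 doses a day, until death. The sample records place the first dose 12 h before surgery and the study's methods 1 day before. No resected tissue of NSC-treated mice was analysed here, so both 40 h groups share 1 baseline. Because baseline tissue came from the removed lobes and the 40 h tissue from the lobes left in place, time after surgery and lobe cannot be told apart. Per the study's methods the mice were males randomly assigned to vehicle or NSC. Nothing in the labels says whether a baseline liver and a remnant with the same number came from 1 mouse.

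Libraries held 23997363 to 42887589 counts, and the 10 genes were read by 3 (*Fgf21*, 1 NSC liver) to 19318 counts (*Atf5*). Values below are CPM, the counts of a gene scaled to the size of its library with TMM factors, always given for replicates 1, 2 and 3 in that order. All 8 hepatocyte markers were present, and their summed level lay between 95100 and 132000 CPM in every liver. Most of that sum was *Alb* (75100 to 103000 CPM), so it does not describe the other markers, some of which fell after surgery. 1 library stood apart: in the comparison of NSC with vehicle, leaving out NSC replicate 1 took the genes called over the whole table from 6 to 994. Leaving out vehicle replicate 3 gave 111, and each of the other 7 libraries gave 0 to 4. In bulk liver, fewer cells that express a gene and less RNA per cell cannot be told apart.

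For 3 genes a motif match lay upstream of the start in the promoter window of RefSeq (GRCm38.p6, 250 bases before to 50 after each start), and these stretches are shown because they carry the letters that ATF4 and its C/EBP partners are known to bind. All 10 genes matched, with 12 windows. The motif searched on both strands was TGATGNAA, and capitals mark the match, printed 5′ to 3′ on the strand of the gene.
Chac1, chr2:119351029-119351076, plus strand, match on the opposite strand 193 bases before the start: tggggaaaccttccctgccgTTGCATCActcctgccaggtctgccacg
Fgf21, chr7:45615602-45615649, minus strand, match on the opposite strand 139 bases before the start: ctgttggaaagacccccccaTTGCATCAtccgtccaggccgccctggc
Asns, chr6:7693214-7693243, minus strand, match on the same strand 23 bases before the start: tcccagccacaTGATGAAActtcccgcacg
In *Trib3* a match began 15 bases after the start and is not printed, so 4 of the 10 genes held the motif, beside 3.97% of all 32851 windows. The AP-1 heptamer TGACTCA was in 1 of the 10, 242 bases before the start of *Ddit3*, and in 5.2% of all windows.
Ddit3, chr10:127290543-127290577, plus strand, match on the same strand: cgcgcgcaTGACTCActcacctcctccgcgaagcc
The genes that held the first motif did not move as 1 block, as their values below show. A match describes the letters of the window only.

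Between baseline and 40 h in vehicle livers, *Ddit3* rose, *Ddit4*, *Sesn2* and *Chac1* fell, and the other 6 genes did not pass the test. These 4 of 10 stand beside 23.7% of all tested genes called in that comparison, 12.7% higher and 11% lower. The test was edgeR's quasi-likelihood test with Benjamini-Hochberg adjustment over all 15024 genes, and a gene was called at an adjusted p under 0.05. In NSC livers *Ddit4*, *Sesn2* and *Chac1* fell against the same baseline and none of the 10 rose, 3 of 10 beside 34.7% of all tested genes (18.2% higher and 16.5% lower). At an unadjusted p under 0.05 there were 5 of 10 in vehicle livers and 6 of 10 in NSC livers, beside 37% and 45.2% of all genes. Between NSC and vehicle at 40 h none of the 10 was called by edgeR, beside 0.0399% of all tested genes. At an unadjusted p under 0.05 there were 3 (*Ddit3*, *Ddit4* and *Gdf15*), beside 19.5% of all genes. DESeq2 called 1 of 9 (*Ddit3*), beside 5.84% of all genes it tested.

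**Figure D1:**
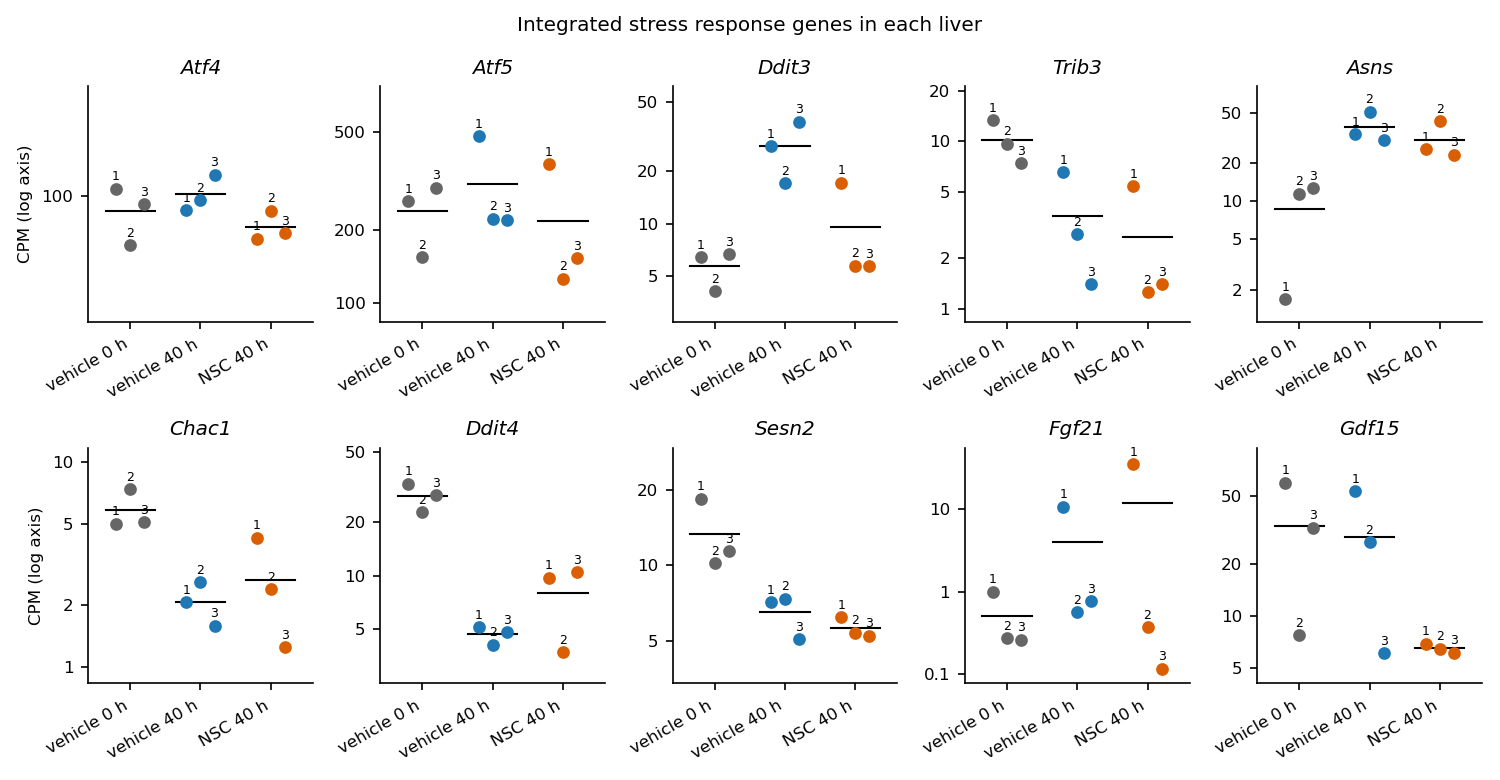
Level of each integrated stress response gene in CPM on a log axis, 1 panel a gene, with 1 point a liver labelled by its replicate number and a line at the mean of each group of 3. *Ddit3* in vehicle livers at 40 h (17.1 to 38.4 CPM) lies above every baseline liver, *Ddit4* in both 40 h groups lies below every baseline liver, and NSC replicate 1 is the highest liver for *Fgf21* (35.2 CPM).

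Levels of different genes were compared per length, as the deposited FPKM. At baseline *Atf5* (115 ± 36.4, SD, n = 3) and *Atf4* (51.6 ± 7.59) were the highest of the 10 and *Fgf21* (0.534 ± 0.44) the lowest. *Asns* (3.06 ± 2.15), *Ddit3* (3.23 ± 0.794), *Chac1* (3.44 ± 0.788) and *Sesn2* (3.7 ± 1.22) were neighbours whose values overlapped. In vehicle livers at 40 h *Ddit3* stood at 15.9 ± 6.44 FPKM, with *Gdf15* (15.5 ± 13.7) and *Asns* (13.5 ± 3.06) overlapping it, and *Chac1* (1.23 ± 0.259) was the lowest. In NSC livers *Ddit3* stood at 6.01 ± 4.38 FPKM. *Fgf21* ranked after *Atf5* and *Atf4* there at 14.1 ± 24, a mean carried by 1 liver at 41.8 FPKM.

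The factors at the head of the program differed from each other. *Atf4* (chromosome 15, 80255184 to 80257540), whose protein is set mainly by translation, stood at 104, 77 and 95.6 CPM at baseline, 92.8, 97.9 and 112 CPM in vehicle livers and 79.7, 92.5 and 82 CPM in NSC livers. The baseline livers spanned most of the range of both 40 h groups. Every NSC liver was below every vehicle liver, by a margin of 92.5 against 92.8 CPM. The log2 fold change was 0.13 ± 0.152 (SE) for vehicle against baseline, -0.12 ± 0.152 for NSC against baseline and -0.25 ± 0.152 for NSC against vehicle, with edgeR adjusted p of 0.576, 0.566 and 0.375. Of the 10 genes, *Atf4* was the only one whose NSC and vehicle livers did not overlap at 40 h, 1 of 10 lower beside 12.2% of all genes, and 0 of 10 higher beside 10.3%. mRNA counts carry no measure of ATF4 protein.

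*Atf5* (chromosome 7, 44812257 to 44816658), a related factor also controlled through translation, stood at 262, 154 and 297 CPM at baseline, 483, 222 and 218 CPM in vehicle livers and 370, 126 and 153 CPM in NSC livers. Replicate 1 was the highest liver in both 40 h groups, and all 3 groups overlapped. The log2 fold changes were 0.38 ± 0.488 for vehicle and -0.13 ± 0.488 for NSC against baseline, and -0.51 ± 0.489 for NSC against vehicle (edgeR adjusted p = 0.626, 0.856 and 0.594).

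*Ddit3* (chromosome 10, 127290774 to 127296288) encodes CHOP, the factor that follows ATF4 when stress persists. It stood at 6.41, 4.12 and 6.67 CPM at baseline, 27.8, 17.1 and 38.4 CPM in vehicle livers and 17.2, 5.74 and 5.71 CPM in NSC livers. Every vehicle liver at 40 h was above every baseline liver. NSC replicates 2 and 3 lay inside the range of baseline, while NSC replicate 1 was level with the lowest vehicle liver. *Ddit3* rose by 2.27 ± 0.498 on the log2 scale in vehicle livers (edgeR adjusted p = 0.0128). Without baseline replicate 2 the change was 2.08 and the adjusted p was 0.0503. In NSC livers the log2 fold change against baseline was 0.74 ± 0.487 (edgeR adjusted p = 0.272), and it was 0.001 without NSC replicate 1 (adjusted p = 0.999).

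Between NSC and vehicle at 40 h the log2 fold change of *Ddit3* was -1.53 ± 0.483, with an edgeR adjusted p of 0.154 and an unadjusted p of 0.0125. NSC was below all 3 vehicle livers in 2 of 3 livers. With DESeq2 the value was -1.52 and the adjusted p was 0.0122. Without NSC replicate 1 edgeR gave -2.28 and an adjusted p of 0.00536, with 6.46% of all genes called. Over all 17 alternatives the adjusted p lay between 0.00536 and 0.352. All 17 kept the lower value in NSC livers.

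*Trib3* (chromosome 2, 152337422 to 152344032), a pseudokinase that ATF4 and CHOP induce and that restrains AKT and ATF4 itself, stood at 13.3, 9.65 and 7.42 CPM at baseline, 6.53, 2.8 and 1.4 CPM in vehicle livers and 5.4, 1.26 and 1.41 CPM in NSC livers. Every 40 h liver was below every baseline liver, and replicate 1 was again the highest in each 40 h group. The log2 fold changes were -1.49 ± 0.675 for vehicle and -1.90 ± 0.691 for NSC against baseline (edgeR adjusted p = 0.149 and 0.064). Without NSC replicate 1 the value for NSC was -2.92 (adjusted p = 0.00943). The difference between NSC and vehicle was -0.41 ± 0.684 (edgeR adjusted p = 0.776), and 0.35 without vehicle replicate 1.

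The 2 enzymes of the list had values of opposite direction. *Asns* (chromosome 6, 7675169 to 7693254), asparagine synthetase and a standard readout of amino acid lack, stood at 1.67, 11.5 and 12.7 CPM at baseline, 33.9, 51.1 and 30.3 CPM in vehicle livers and 25.8, 43.1 and 23.4 CPM in NSC livers. Every 40 h liver was above every baseline liver, and baseline replicate 1 was far below the other two. The log2 fold changes were 2.15 ± 0.661 for vehicle and 1.83 ± 0.656 for NSC against baseline (edgeR adjusted p = 0.0531 and 0.0664). Without baseline replicate 1 they were 1.66 and 1.34, with adjusted p of 0.007 and 0.0106. NSC and vehicle livers overlapped (log2 fold change -0.32 ± 0.628, edgeR adjusted p = 0.814).

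*Chac1* (chromosome 2, 119351229 to 119354381), which breaks down glutathione and lies downstream of ATF4 and CHOP, stood at 5.02, 7.39 and 5.11 CPM at baseline, 2.08, 2.59 and 1.59 CPM in vehicle livers and 4.29, 2.41 and 1.25 CPM in NSC livers. Both 40 h groups were below baseline in every liver, with NSC replicate 1 nearest to it. *Chac1* fell by 1.48 ± 0.384 on the log2 scale in vehicle livers and by 1.13 ± 0.38 in NSC livers (edgeR adjusted p = 0.016 and 0.0373). In vehicle livers the call was lost without baseline replicate 2 and without vehicle replicate 1 or 3 (adjusted p = 0.0514, 0.0549 and 0.0711). In NSC livers 9 of 17 alternatives lost it, with an adjusted p up to 0.21 after correction for GC content. The difference between NSC and vehicle was 0.35 ± 0.386 (edgeR adjusted p = 0.64), and -0.19 without NSC replicate 1.

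*Ddit4* and *Sesn2*, which restrain the growth kinase complex mTORC1, were the members that fell in both 40 h groups with the smallest p. *Ddit4* (chromosome 10, 59949675 to 59951770) stood at 33.1, 22.9 and 28.5 CPM at baseline, 5.13, 4.07 and 4.8 CPM in vehicle livers and 9.72, 3.7 and 10.5 CPM in NSC livers. No 40 h liver came near baseline, and NSC replicates 1 and 3 were above all vehicle livers while NSC replicate 2 was below them. *Ddit4* fell by 2.59 ± 0.335 on the log2 scale in vehicle livers and by 1.82 ± 0.324 in NSC livers (edgeR adjusted p = 0.000583 and 0.00202), and it stayed past the threshold in all 17 alternatives. The difference between NSC and vehicle was 0.77 ± 0.326 (edgeR adjusted p = 0.23).

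*Sesn2* (chromosome 4, 132492032 to 132510501), a leucine sensor that p53 and ATF4 induce, stood at 18.4, 10.2 and 11.4 CPM at baseline, 7.13, 7.36 and 5.09 CPM in vehicle livers and 6.21, 5.4 and 5.24 CPM in NSC livers. Both 40 h groups were below every baseline liver and overlapped each other. *Sesn2* fell by 1.03 ± 0.242 on the log2 scale in vehicle livers (edgeR adjusted p = 0.00959) and by 1.25 ± 0.244 in NSC livers (edgeR adjusted p = 0.00251). Without baseline replicate 1 the value in vehicle livers was -0.72 (adjusted p = 0.0524). The difference between NSC and vehicle was -0.22 ± 0.243 (edgeR adjusted p = 0.642).

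Of the secreted hormones, *Fgf21* had the widest spread of the 10 genes in both 40 h groups, 19-fold in vehicle livers and 300-fold in NSC livers. *Fgf21* (chromosome 7, 45613907 to 45615490), the fasting and stress hormone of hepatocytes, stood at 1.01, 0.275 and 0.264 CPM at baseline, 10.8, 0.57 and 0.775 CPM in vehicle livers and 35.2, 0.374 and 0.117 CPM in NSC livers. Replicate 1 was the highest liver in all 3 groups, and NSC replicate 3 held 3 counts. The log2 fold changes were 2.98 ± 2.216 for vehicle and 4.52 ± 2.275 for NSC against baseline (edgeR adjusted p = 0.38 and 0.169). Without NSC replicate 1 the NSC value was -1.03, and without vehicle replicate 1 the vehicle value was 0.37. The difference between NSC and vehicle was 1.54 ± 1.89 with all livers (edgeR adjusted p = 0.686), -4.01 without NSC replicate 1 and 4.16 without vehicle replicate 1, so single livers set its direction.

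*Gdf15* (chromosome 8, 70629393 to 70632456), a hormone of tissue stress that lowers food intake, stood at 59.3, 7.79 and 32.6 CPM at baseline, 53.2, 26.9 and 6.13 CPM in vehicle livers and 6.93, 6.49 and 6.14 CPM in NSC livers. The 3 NSC livers lay within 1.13-fold of each other and below every baseline liver, while baseline and vehicle livers spread over 7.62-fold and 8.69-fold. Vehicle replicate 3, at 6.13 CPM, was level with the NSC livers. The log2 fold changes were -0.20 ± 0.853 for vehicle and -2.35 ± 0.912 for NSC against baseline (edgeR adjusted p = 0.889 and 0.0867), and -2.14 ± 0.906 for NSC against vehicle (edgeR adjusted p = 0.255). DESeq2 called the change of NSC against baseline (-2.35, adjusted p = 0.0268), as it did 33.2% of all genes it tested. Without vehicle replicate 1 the difference between NSC and vehicle was -1.35.

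**Figure D2:**
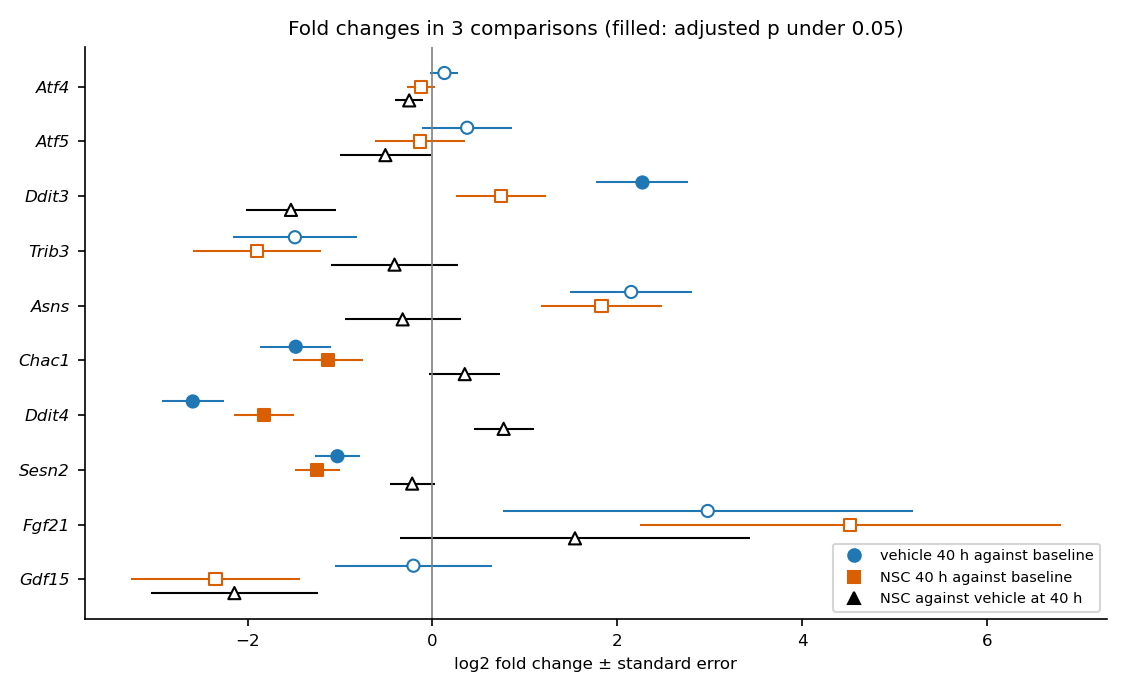
Log2 fold change with its standard error for the 10 integrated stress response genes in 3 comparisons, with filled symbols for an edgeR adjusted p under 0.05. *Ddit4*, *Sesn2* and *Chac1* are filled and below 0 in both comparisons with baseline, *Ddit3* is filled in vehicle livers only, and 0 symbols are filled for NSC against vehicle. Both comparisons with baseline share its 3 livers.

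Counted over the list, the groups did not overlap for 2 genes higher (*Ddit3* and *Asns*) and 4 lower (*Trib3*, *Chac1*, *Ddit4* and *Sesn2*) in vehicle livers against baseline, beside 24.2% and 22% of all tested genes. In NSC livers 1 gene was higher (*Asns*) and 5 were lower (the same 4 and *Gdf15*), beside 24% and 23.1%. The median log2 fold change of the 10 was -0.04 in vehicle livers, -0.63 in NSC livers and -0.29 between NSC and vehicle, where the medians over all tested genes were 0.013, 0.013 and 0.015. With an absolute log2 fold change over 1.5 as well, 2 genes were called in vehicle livers (*Ddit3* and *Ddit4*, beside 7.22%), 1 in NSC livers (*Ddit4*, beside 8.13%) and 0 between NSC and vehicle (beside 0.02%).

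In NSC against vehicle, the sign of most members did not depend on a single liver. *Ddit3*, *Gdf15*, *Atf4*, *Atf5*, *Asns* and *Sesn2* were lower and *Ddit4* higher in NSC livers whichever of the 9 livers was left out. The size of the difference did depend on single livers. It nearly vanished for *Atf5* without vehicle replicate 1 (-0.029) and for *Asns* without vehicle replicate 2 (-0.064). *Trib3*, *Chac1* and *Fgf21* changed sign with 1 liver left out, as given above. With correction for GC content *Sesn2* also changed sign (0.14, edgeR adjusted p = 0.87).

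**Figure D3:**
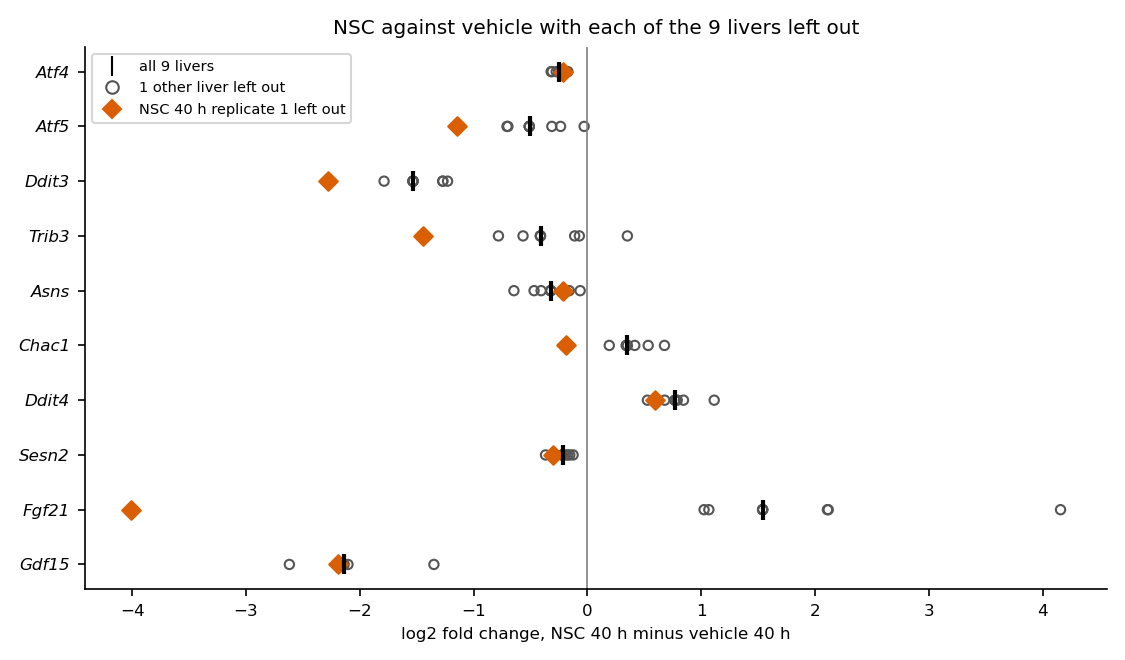
Log2 fold change of NSC against vehicle at 40 h for each integrated stress response gene, with all 9 livers (bar) and with each liver left out in turn (circles, and a diamond where NSC replicate 1 is left out). *Ddit3* moves from -1.53 to -2.28 without NSC replicate 1, and *Fgf21* spans -4.01 to 4.16.

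Around the 10 genes, 59 of 61 further genes of the pathway were tested, in 5 lists. In vehicle livers 14 rose and 9 fell against baseline, 39% of the 59 beside 23.7% of all tested genes, and in NSC livers 12 rose and 13 fell, 42.4% beside 34.7%. With library size as the only scaling the split in NSC livers was 14 to 9, beside 5194 of 15024 tested genes called. With correction for GC content it was 12 to 9, beside 4350 of 14900. Between NSC and vehicle 0 were called by edgeR, 12 of 59 (20.3%, beside 19.5% of all genes) had an unadjusted p under 0.05, and DESeq2 called 3 of 57, beside 5.84%. Of the 59, 48 had a lower value in NSC livers (median log2 fold change -0.23). Without baseline replicate 3 the count in vehicle livers was 12, beside 2285 of 15398 tested genes called (3564 of 15024 with all livers). Without baseline replicate 1 it was 15, beside 2329 of 15281, and without vehicle replicate 1 also 15, beside 2367 of 15326. Without NSC replicate 1 it was 27, beside 4538 of 15390. Between NSC and vehicle 3 pathway genes were then called, beside 6.46% of all genes.

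The first list held 16 genes that set the phosphorylation of eIF2 and its reuse (kinases, eIF2 and eIF2B subunits, phosphatase subunits and kinase inhibitors). Of these, 3 rose and 2 fell in each 40 h group. This 31.2% stands beside 23.7% of all tested genes in vehicle livers and 34.7% in NSC livers. *Ppp1r15a* encodes GADD34, the phosphatase subunit that ATF4 and CHOP induce to switch the response off. It stood at 25.7, 16.4 and 20.1 CPM at baseline, 12, 11.8 and 9.41 CPM in vehicle livers and 7.38, 6.38 and 7.32 CPM in NSC livers. The 3 groups did not overlap: baseline was highest and NSC lowest. *Ppp1r15a* fell by 0.90 ± 0.186 on the log2 scale in vehicle livers and by 1.56 ± 0.191 in NSC livers (edgeR adjusted p = 0.00492 and 0.000175), and the difference between NSC and vehicle was -0.66 ± 0.189 (edgeR adjusted p = 0.115).

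Among the same 16, the eIF2B subunit gene *Eif2b4* rose with the smallest p in vehicle livers (log2 fold change 0.61 ± 0.151, edgeR adjusted p = 0.0129), from 28.7, 33.9 and 29.8 CPM to 49.4, 45.2 and 45.9 CPM. In NSC livers it stood at 27.4, 38.4 and 36 CPM, all below the vehicle livers. *Eif2s1*, which encodes the subunit that is phosphorylated, rose in both, by 0.57 ± 0.147 and 0.76 ± 0.148 (edgeR adjusted p = 0.0153 and 0.00243).

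Of the 6 genes for bZIP factors that pair with or act beside ATF4 and CHOP, 0 rose and 1 fell in vehicle livers. In NSC livers 1 rose and 3 fell. These are 16.7% and 66.7% of the list, beside 23.7% and 34.7% of all tested genes. *Cebpa*, the hepatocyte factor that holds back proliferation and that CHOP can bind, stood at 209, 221 and 233 CPM at baseline, 55.9, 76 and 94.9 CPM in vehicle livers and 70.3, 79.5 and 116 CPM in NSC livers. Both 40 h groups were far below baseline and overlapped each other. *Cebpa* fell by 1.55 ± 0.223 in vehicle livers and by 1.32 ± 0.222 in NSC livers on the log2 scale (edgeR adjusted p = 0.000687 and 0.00105). *Nfe2l2*, which encodes the antioxidant factor NRF2, rose in NSC livers by 0.67 ± 0.161 (edgeR adjusted p = 0.00746), with 73.2, 81.9 and 70.4 CPM beside 44.5, 52.7 and 44.9 CPM at baseline. In vehicle livers its value was 0.22 ± 0.16 (edgeR adjusted p = 0.352), and the difference between NSC and vehicle was 0.45 ± 0.16 (edgeR adjusted p = 0.167).

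Amino acid supply had the highest median of the 5 lists in both comparisons with baseline. Of 17 tested transporters and enzymes, 8 rose and 3 fell in vehicle livers, and 6 rose and 4 fell in NSC livers. These are 64.7% and 58.8% of the list, beside 23.7% and 34.7% of all tested genes, with median log2 fold changes of 1.27 and 0.41. The summed level of the list went the other way. It was 1700 to 2040 CPM at baseline, 995 to 1240 CPM in vehicle livers and 879 to 1040 CPM in NSC livers. *Slc1a4*, a transporter of serine and alanine, stood at 5.56, 3.54 and 6.14 CPM at baseline, 36.4, 33.9 and 35 CPM in vehicle livers and 18.2, 32.4 and 23.2 CPM in NSC livers. Its 3 groups did not overlap, with vehicle livers highest. *Slc1a4* rose by 2.79 ± 0.244 in vehicle livers and by 2.27 ± 0.241 in NSC livers on the log2 scale (edgeR adjusted p = 4.12e-05 and 7.84e-05). *Cth*, which makes cysteine from cystathionine, fell by 1.13 ± 0.298 and by 1.39 ± 0.3 (edgeR adjusted p = 0.0183 and 0.00465).

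*Phgdh*, the first enzyme of serine synthesis, stood at 0.221, 0.214 and 0.066 CPM at baseline, 5.63, 2.82 and 1.48 CPM in vehicle livers and 0.99, 0.679 and 1.37 CPM in NSC livers. All 40 h livers were above baseline and all NSC livers below the vehicle livers. *Phgdh* rose by 4.28 ± 0.589 in vehicle livers and by 2.56 ± 0.607 in NSC livers (edgeR adjusted p = 0.000561 and 0.00707). Its baseline replicate 3 lay below the level of 3 counts in that library (0.0962 CPM), so the size of these rises rests on few reads. The difference between NSC and vehicle was -1.72 ± 0.486 (edgeR adjusted p = 0.114). Over the list, 16 of 17 values were lower in NSC than in vehicle livers, and 0 were called.

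Of the 13 genes of tRNA charging, 1 rose and 0 fell in vehicle livers, and 0 rose and 1 fell in NSC livers. This is 7.69% of the list each time, below the 23.7% and 34.7% of all tested genes. *Wars*, tryptophanyl-tRNA synthetase, rose in vehicle livers by 0.83 ± 0.144 (edgeR adjusted p = 0.00195), from 16.9, 19 and 19.6 CPM to 31.3, 35.4 and 32 CPM. In NSC livers it stood at 19.9, 24.4 and 19.1 CPM, all below the vehicle livers, and the difference between NSC and vehicle was -0.64 ± 0.144 (edgeR adjusted p = 0.085). That was the smallest p of the 59 pathway genes in the direct comparison. *Mars*, methionyl-tRNA synthetase, fell in NSC livers by 0.51 ± 0.168 (edgeR adjusted p = 0.0337).

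Of 7 tested further targets of ATF4 or CHOP, 2 rose and 3 fell in each 40 h group. This is 71.4% of the list, beside 23.7% of all tested genes in vehicle livers and 34.7% in NSC livers. *Tnfrsf10b*, the death receptor that CHOP is known to induce, stood at 0.348, 0.336 and 0.33 CPM at baseline, 3.03, 2.12 and 3.73 CPM in vehicle livers and 1.89, 4.24 and 2.04 CPM in NSC livers. Both 40 h groups were above baseline and overlapped each other. *Tnfrsf10b* rose by 3.11 ± 0.407 and by 3.00 ± 0.408 on the log2 scale (edgeR adjusted p = 0.000381 and 0.000318). *Vegfa*, the angiogenic growth factor, fell by 0.85 ± 0.16 and by 1.37 ± 0.162 (edgeR adjusted p = 0.00304 and 0.000146), and every NSC liver (66.5 to 73.8 CPM) was below every vehicle liver (81.5 to 113 CPM).

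Genes that answer mainly to the ATF6 and XBP1 branches of the unfolded protein response were counted apart. Most encode endoplasmic reticulum chaperones and folding enzymes, so the 15 are called the chaperone list, or chaperones for short. The list also held *Xbp1* itself, and *Edem1*, *Herpud1* and *Syvn1* of the machinery that degrades misfolded proteins. In vehicle livers 12 of 15 rose and 1 fell against baseline (median log2 fold change 1.00), beside 23.7% of all genes called. In NSC livers 3 of 15 rose and 1 fell (median 0.34), beside 34.7%. Between NSC and vehicle 0 of 15 were called by edgeR, 10 had an unadjusted p under 0.05 (beside 19.5% of all genes), and 15 of 15 values were lower in NSC livers (median -0.66). For 10 of 15 every NSC liver was below every vehicle liver, beside 12.2% of all genes. DESeq2 called 5 there, beside 5.84%, and edgeR without NSC replicate 1 called 4, beside 6.46%. Without vehicle replicate 3 the count called in vehicle livers against baseline was 9, beside 2519 of 15461 tested genes (3564 of 15024 with all livers).

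*Manf*, a secreted protein of the stressed endoplasmic reticulum, stood at 81.8, 53.8 and 91.7 CPM at baseline, 183, 130 and 254 CPM in vehicle livers and 131, 146 and 159 CPM in NSC livers. Both 40 h groups were above baseline. *Manf* rose by 1.32 ± 0.251 in vehicle livers and by 0.94 ± 0.249 in NSC livers (edgeR adjusted p = 0.00341 and 0.0127). *Xbp1*, which encodes the factor of the XBP1 branch, rose by 0.88 ± 0.198 and by 0.78 ± 0.198 (edgeR adjusted p = 0.00802 and 0.0101). *Herpud1*, part of the machinery that degrades misfolded proteins, went the other way: it fell from 555, 547 and 554 CPM to 324, 268 and 205 CPM in vehicle livers and to 171, 162 and 144 CPM in NSC livers. Its log2 fold changes were -1.06 ± 0.18 and -1.79 ± 0.183 against baseline (edgeR adjusted p = 0.00174 and 6.05e-05) and -0.74 ± 0.179 between NSC and vehicle (edgeR adjusted p = 0.0907).

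**Figure D4:**
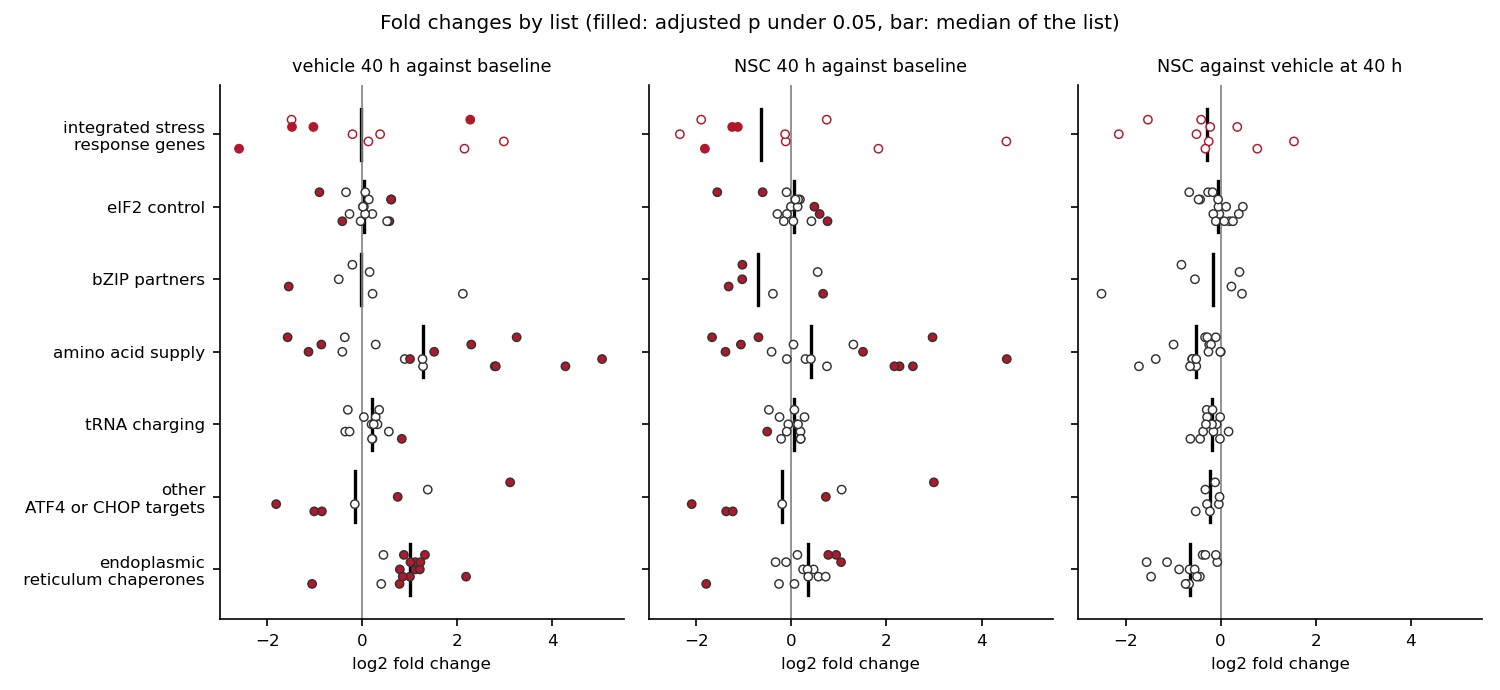
Log2 fold change of each tested gene by list in 3 comparisons, with filled points for an edgeR adjusted p under 0.05 and a bar at the median of each list. In vehicle livers 12 of 15 genes of the chaperone list are filled above 0, and in NSC livers 3 are. Between NSC and vehicle all 15 lie below 0 with none filled.

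The same motifs were counted in the promoters of the chaperone list, with no test of a difference. The endoplasmic reticulum stress element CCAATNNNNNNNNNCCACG was in 6 of the 13 genes of that list with a RefSeq window. It was in 0 of the 10 integrated stress response genes and in 0.119% of all windows. TGATGNAA was in 1 of the 13 (*Herpud1*) and TGACTCA in 1 of the 13 (*Hspa5*). The match of *Pdia6*, a disulfide isomerase whose pattern over the livers was among those most like *Ddit3*, is shown with the match in capitals.
Pdia6, chr12:17266471-17266529, plus strand, match on the same strand 98 bases before the start: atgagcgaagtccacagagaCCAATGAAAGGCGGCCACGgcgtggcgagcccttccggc

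Over the 9 livers, tested genes whose log2 CPM was among those most like that of *Ddit3* were *RP23-123O12.2* (Pearson r = 0.947), *Sult1a1* (0.945), *Dnajb11* (0.942) and *Pdia6* (0.94). These r describe 9 livers that share their groups and scaling. *Dnajb11*, a co-chaperone of the endoplasmic reticulum, stood at 90.3, 70.6 and 97.2 CPM at baseline, 151, 114 and 181 CPM in vehicle livers and 113, 103 and 89.7 CPM in NSC livers. As in *Ddit3*, the vehicle livers at 40 h had the highest mean, and NSC replicate 1 was the highest NSC liver. *RP23-123O12.2* did not exceed 0.738 CPM in any liver.

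Among the 10 genes themselves the patterns were diverse. Their 45 pairwise r over the 9 livers ran from -0.873 to 0.861 with a median of 0.14, 28 positive and 17 negative. The most alike pair was *Trib3* and *Sesn2* (0.861). *Chac1* was most like *Trib3* (0.819), *Ddit4* and *Gdf15* most like *Sesn2* (0.811 and 0.698), and *Atf5* and *Fgf21* most like each other (0.783). *Ddit3* was most like *Atf5* (0.593), *Atf4* most like *Ddit3* (0.472), and *Asns* most like *Ddit3* (0.454). The first 4 of these genes (*Trib3*, *Sesn2*, *Chac1* and *Ddit4*) were higher in every baseline liver than in any 40 h liver, and *Ddit3* and *Asns* had their lowest mean at baseline.

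**Figure D5:**
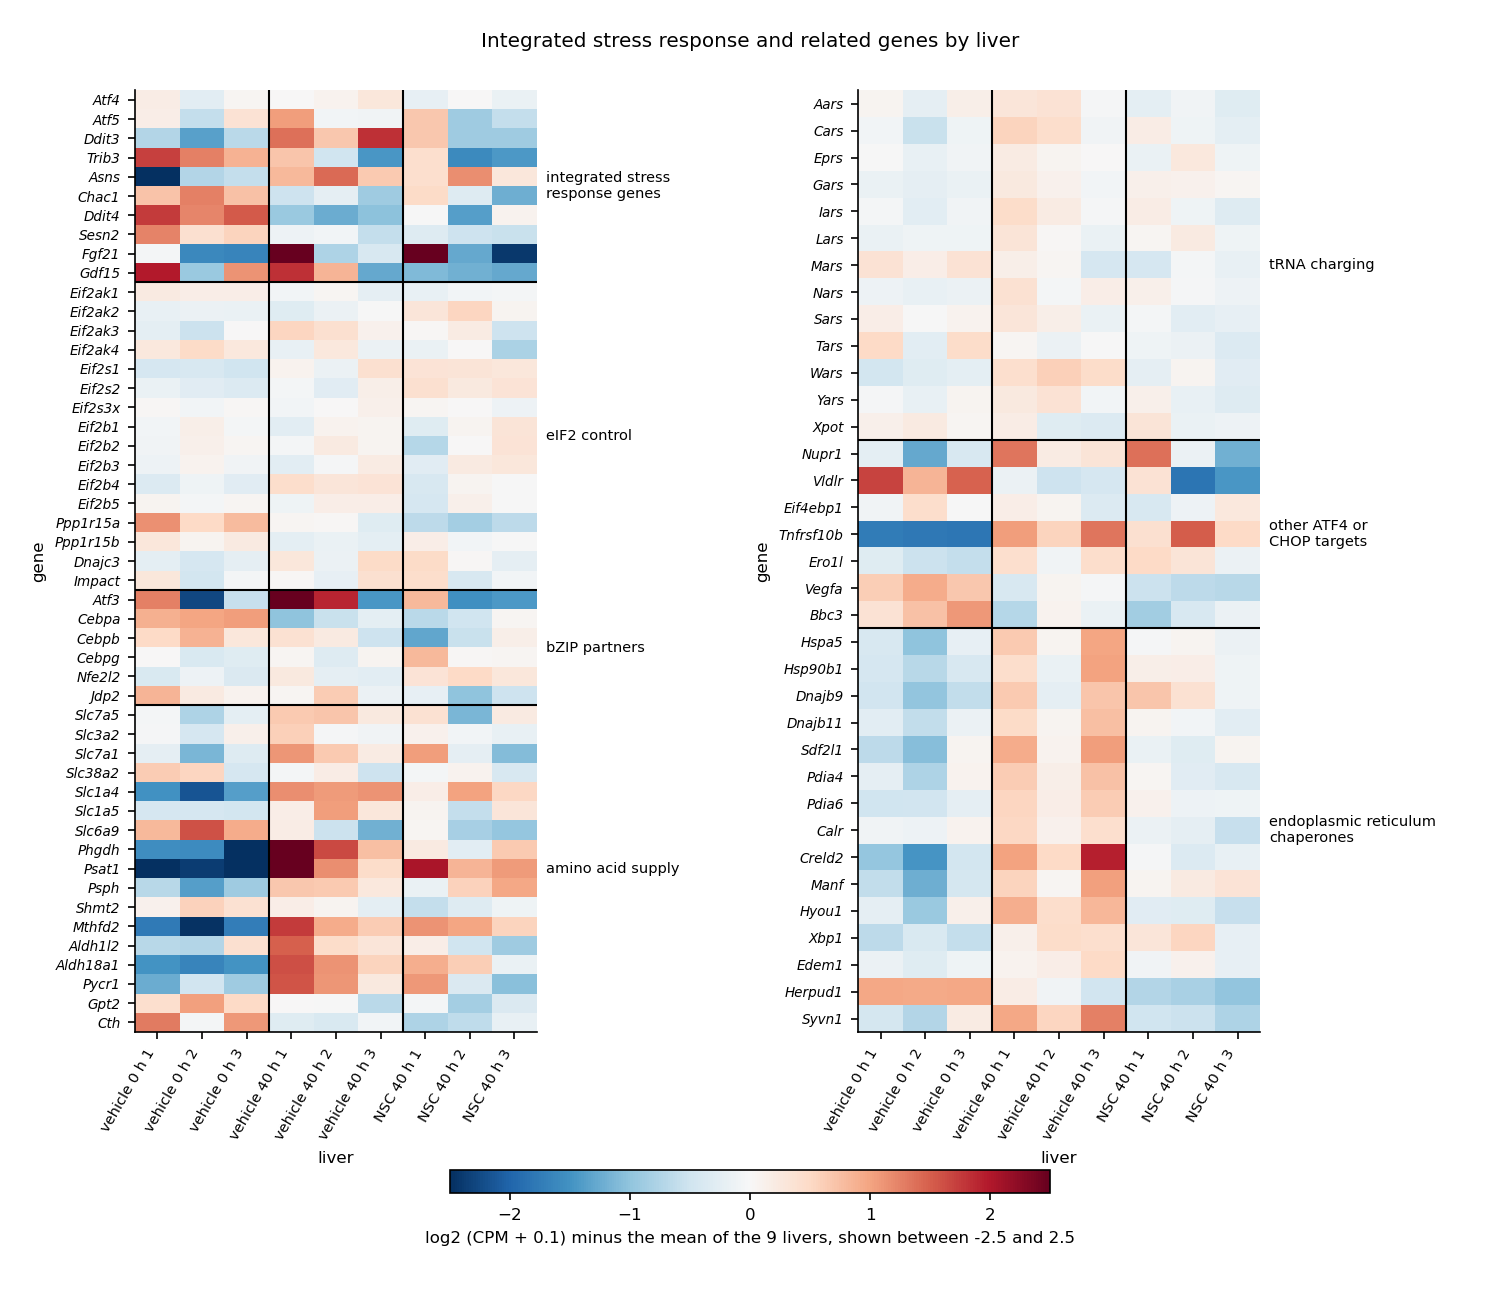
Level of each tested gene of the integrated stress response and its related lists in each liver, as log2 (CPM + 0.1) minus the mean of the 9 livers, with colours limited to -2.5 and 2.5. *Ddit3* and most genes of the chaperone list (not *Herpud1*) are reddest in vehicle livers at 40 h. *Trib3*, *Chac1*, *Ddit4* and *Sesn2* are red at baseline, and *Fgf21* is red in replicate 1 of both 40 h groups.

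Markers of other liver cells moved between the same groups. The summed level of 8 stellate cell markers was 186 to 222 CPM at baseline (median 221), 303 to 392 CPM in vehicle livers (median 386) and 222 to 377 CPM in NSC livers (median 238). Against baseline 5 of 8 rose in vehicle livers and 1 of 8 in NSC livers, beside 12.7% and 18.2% of all tested genes called higher. The sum of 8 macrophage markers was 151 to 209, 130 to 241 and 228 to 368 CPM, with medians of 156, 203 and 241 CPM. For these, 2 of 8 and 4 of 8 were called higher, beside the same shares of all genes. No marker of either list was at 0 in any liver. Between NSC and vehicle the stellate markers had lower values for 7 of 8 genes and the macrophage markers higher values for 7 of 8, and 0 of either list were called. Their part in the values of *Ddit3*, *Gdf15* and the chaperones was not tested.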

How the data were processed

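Whole-liver RNA (TruSeq Stranded mRNA libraries) from 9 mouse samples was analysed. The authors ran MAP-RSeq, and the submitters' processing notes name STAR 2.6.1, Subread 1.5.1 and featureCounts with the build hg38, although gene identifiers and coordinates are mouse ones. Of 43346 genes, 42462 had an identifier in GENCODE M21 (GRCm38), 33460 with the same coordinates, including 6 of the 10 members. Gene coordinates are printed as deposited. Whether strand was used in counting is not given in the sources used here. The deposited raw count of each gene was tested as it stood, and the deposited FPKM, which the authors made from those counts, served only to compare levels between genes.

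The tools were edgeR 4.0.16 and DESeq2 1.42.0 under R 4.3.3. Tables and plots came from pandas 2.3.3 and matplotlib 3.10.9 (Python 3.11.15). TMM scaling, filterByExpr and 1 robust quasi-likelihood fit of all 9 libraries by group were used, with p adjusted by Benjamini-Hochberg over 15024 genes. This procedure was tested on simulated data for NSC against vehicle. Of 200 genes changed 4-fold it recovered 176 with 12 false calls, and of 200 changed 8-fold 191 with 22 false calls. With no gene changed it made 0 false calls. Apart from the change, each simulated gene had 1 mean over the 9 libraries, and no library stood apart as NSC replicate 1 did. These rates need not hold for the real livers. A standard error is the log2 fold change divided by the square root of F. P-values set a difference against the spread within groups of 3 samples. That spread was estimated from all 9 libraries together, so each comparison also depends on the group outside it. Log2 CPM for correlations used a prior count of 2.

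The members and lists were chosen with earlier results of these data known. All 10 members are named. Of each other pathway list and the chaperones, the called gene with the smallest p in each direction is named for each comparison, with the 3 pathway genes of smallest p between NSC and vehicle and the 5 genes most like *Ddit3*, of which 1 is not reported here. Motifs were chosen after the values were seen. Alternatives were DESeq2, RLE factors, library size only, at least 1 count in all, at least 10 counts in every library, the 2 groups compared only, the replicate number as a block, correction for GC content (loess, span 0.5, known for 99.2% of tested genes), an added fold threshold and each library left out. Those for the chaperone list were added after seeing the data.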

Additional observations from a re-analysis of the deposited data

How the results depend on the processing

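Precision is set by 3 livers a group. Of the integrated stress response genes, 4, 3 and 0 were called for vehicle against baseline, NSC against baseline and NSC against vehicle, and leaving out 1 library gave 2 to 4, 2 to 5 and 0 to 1. The lowest count in the first came without baseline replicate 2, beside 2891 of 15331 tested genes called. The highest in the second came without vehicle replicate 3, beside 5234 of 15461. For the pathway genes (23, 25 and 0) these ranges were 12 to 27, 19 to 24 and 0 to 3, and for the chaperones (13, 4 and 0) 9 to 14, 3 to 6 and 0 to 4. Over all tested genes (3564, 5207 and 6 called) they were 2285 to 4538, 3604 to 5234 and 0 to 994. With an absolute log2 fold change over 1.5 as well, 2 and 1 members, 11 and 10 pathway genes and 1 and 1 chaperones were called against baseline. These stand beside 7.22% and 8.13% of all tested genes. DESeq2 called 6 members in NSC against baseline, beside 33.2% of all genes it tested. It called 1 member, 3 pathway genes and 5 chaperones in NSC against vehicle, beside 5.84%. In that comparison the chaperones called were 3 with all genes of at least 1 count, beside 221 of 24325 genes. There was 1 with only the 2 groups compared, beside 6 of 14485, and 1 with the replicate block, beside 11 of 15024. The cause of these changes was not tested. Library size as the only scaling moved the median of all genes by 0.139 in NSC against baseline and by 0.126 in NSC against vehicle, while correction for GC content left 0 of all genes called in the latter. *Atf4* in NSC against baseline changed sign with library size only (0.017) and with GC correction (0.192). *Atf5* did so there too (0.026 and 0.509), and its values with 1 library left out ran from -0.767 to 0.143, above 0 without baseline replicate 3 (0.063), NSC replicate 2 (0.143) or NSC replicate 3 (0.066). *Sesn2* in NSC against vehicle was 0.135 with GC correction. The other sign changes came from 1 library left out. Without vehicle replicate 1, *Atf5* in vehicle against baseline was -0.103 (range -0.103 to 0.576) and *Trib3* in NSC against vehicle 0.351 (range -1.445 to 0.351). Without NSC replicate 1, *Chac1* in NSC against vehicle was -0.19 (range -0.19 to 0.677) and *Fgf21* -1.026 in NSC against baseline (range -1.026 to 5.448) and -4.009 in NSC against vehicle (range -4.009 to 4.157). *Gdf15* in vehicle against baseline ran from -0.998 to 0.513, above 0 without baseline replicate 1 (0.513) or vehicle replicate 3 (0.274). *Fgf21* could not be fitted with at least 10 counts in every library.

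Same-numbered livers deviated together weakly at most. The correlation of their deviations from the group means ran from -0.048 to 0.134 over 9 pairs, with 1 over 0.1. With the replicate number as a block, 5, 4 and 0 of the 10 members were called, beside 3578, 5178 and 11 of 15024 tested genes. *Trib3* was then called in both comparisons with baseline (-1.73 and -2.19, edgeR adjusted p = 0.00297 and 0.000709).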

Other observations

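Marker lists of the other cell types of liver gave these sums at baseline, in vehicle livers and in NSC livers. The 5 cholangiocyte markers summed to 37.8 to 40.6, 76 to 114 and 79 to 121 CPM, and 4 and 3 of 5 rose against baseline. The 7 neutrophil markers summed to 2.17 to 7.17, 8.49 to 16.2 and 11.5 to 17.5 CPM, and 1 and 3 of 5 tested rose. The 6 sinusoidal endothelial markers summed to 206 to 227, 132 to 207 and 132 to 235 CPM, with 1 of 6 lower in each 40 h group. The 7 lymphocyte markers summed to 2.11 to 7.79, 0.591 to 2.1 and 1.8 to 2.31 CPM, with 2 and 1 of 5 tested lower. Of the 8 hepatocyte markers, 2 fell in vehicle livers and 3 in NSC livers. Over all tested genes, 12.7% were called higher and 11% lower in vehicle livers against baseline, and 18.2% and 16.5% in NSC livers. Between NSC and vehicle 0 markers of any list were called by edgeR.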
